A study of Mus musculus with 8 samples.

Results

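The Notch effectors examined here are 7 genes that stand at the output end of Notch signalling, namely Heyl, Hey1, Hey2, Hes1, Hes6, Nrarp and Dtx1. They were chosen by name, and each was found by matching the accession of its array probe to a RefSeq gene symbol. Each gene had 1 probe with 1 spot on the array, so the 7 genes are 7 of 55681 probes that are not controls. All 7 passed the filter on dim probes and are among the 25097 gene names tested.

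The study compared white adipose tissue of wild-type mice (WT) with that of mice called Ad/NICD, in which the Notch1 intracellular domain was overexpressed. There were 4 samples of each genotype. All mice were 5 weeks old, of the mixed strain 129 × C57BL/6, and on regular chow. The sources used here give neither the promoter that drives the transgene nor the fat depot and sex of the mice. The labels call the samples biological replicates. Total RNA was labelled and hybridised to 4 arrays with 2 colours, each with 1 WT and 1 Ad/NICD sample of the same replicate number.

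The direction of every ratio below is likely rather than settled. The authors' deposited value table places the green (Cy3) signal in the WT columns and the red (Cy5) signal in the Ad/NICD columns, and red over green is read as Ad/NICD over WT for that reason. The labelling protocol gives Cy3 to controls, while each sample's own dye tag says the reverse. If the tags are right, every sign turns and the 2 genotypes change places, while sizes and p-values stay. No array had its dyes swapped, so a dye effect on a probe and an effect of genotype cannot be told apart.

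When a Notch receptor is cut after contact with a ligand, its intracellular domain moves to the nucleus and joins the DNA-binding protein RBPJ and a Mastermind co-activator to switch on target genes. The best known targets are the Hes and Hey genes, whose proteins are basic helix-loop-helix (bHLH) repressors of transcription. In vessels, Heyl is a known target in mural cells and Hey1 and Hey2 in endothelium. Nrarp is a target that feeds back on the pathway, Dtx1 encodes a Deltex ubiquitin ligase and is a target in lymphocytes, and Hes6 is a bHLH family member that can counter Hes1. Overactive Notch signalling is known to disturb fat cell differentiation, and Hes1 has been described as its mediator there.

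Promoter sequences from RefSeq (build GRCm38.p6) were searched for letter patterns that take in known sites of RBPJ and HES proteins. The promoter table held Hey2, Nrarp, Hes6 and Dtx1, which is 4 of the 7 genes. Heyl, Hey1 and Hes1 were not matched. The 250 bases before the gene start are shown for the 3 genes whose table entry starts at the start of the gene model, 5′ to 3′ on the strand of the gene, to set a promoter with an RBPJ match beside 2 without one. Capitals mark matches on either strand to TGGGAA or GTGGGAA, the RBPJ core, and to CACNAG, the N-box letters of HES proteins. They also mark CACGNG, a pattern wider than the class C letters of HES proteins, which it takes in. Each GTGGGAA match also holds a TGGGAA match, and CACNAG and CACGNG share the form CACGAG.
Hey2, chr10:30842784-30843033, minus strand: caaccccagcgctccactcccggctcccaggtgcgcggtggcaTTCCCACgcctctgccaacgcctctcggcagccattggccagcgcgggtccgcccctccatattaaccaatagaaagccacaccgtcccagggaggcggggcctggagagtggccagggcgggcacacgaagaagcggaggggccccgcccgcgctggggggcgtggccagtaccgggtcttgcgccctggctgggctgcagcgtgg
Nrarp, chr2:25180508-25180757, plus strand: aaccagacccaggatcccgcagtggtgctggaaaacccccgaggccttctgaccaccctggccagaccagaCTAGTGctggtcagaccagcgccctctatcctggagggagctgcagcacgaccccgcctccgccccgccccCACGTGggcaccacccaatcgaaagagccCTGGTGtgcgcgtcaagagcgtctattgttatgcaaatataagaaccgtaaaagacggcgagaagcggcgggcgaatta
Hes6, chr1:91414039-91414288, minus strand: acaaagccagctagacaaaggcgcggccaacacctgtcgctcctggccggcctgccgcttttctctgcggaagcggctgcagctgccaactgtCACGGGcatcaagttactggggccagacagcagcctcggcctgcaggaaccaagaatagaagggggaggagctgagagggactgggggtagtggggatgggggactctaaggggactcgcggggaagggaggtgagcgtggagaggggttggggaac

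Hey2 held the single RBPJ match among these windows, a GTGGGAA on the strand opposite to the gene, printed above as TTCCCAC and beginning at position -207 from the gene start. That 7-letter form was found in 5.42% of 32851 promoters of the table, and the core TGGGAA in 21.59%. Nrarp held 2 CACNAG matches and 1 CACGNG match, and Hes6 held 1 CACGNG match. The CACGNG matches read CACGTG in Nrarp and CACGGG in Hes6, and neither is counted as a class C site. Of all promoters, 36.67% held CACNAG and 23.51% held CACGNG, so single matches of these are common. A match is a description of letters and says nothing about binding.

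The 7 spots fell into 2 brightness classes, and this decides how far each gene can be read. For Heyl, Hey1, Hes6 and Dtx1 the median foreground lay between 8.63 and 171 times the local background of the same spot, over all arrays and both channels. For Hey2, Hes1 and Nrarp it lay between 1.21 and 5.70 times. The Hey2 spot was well above background in 3 of 4 WT samples and in 4 of 4 Ad/NICD samples, and the 6 other genes were so in every sample. These are brightnesses over each spot's own background, and levels of different probes are not set against each other.

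**Figure D1:**
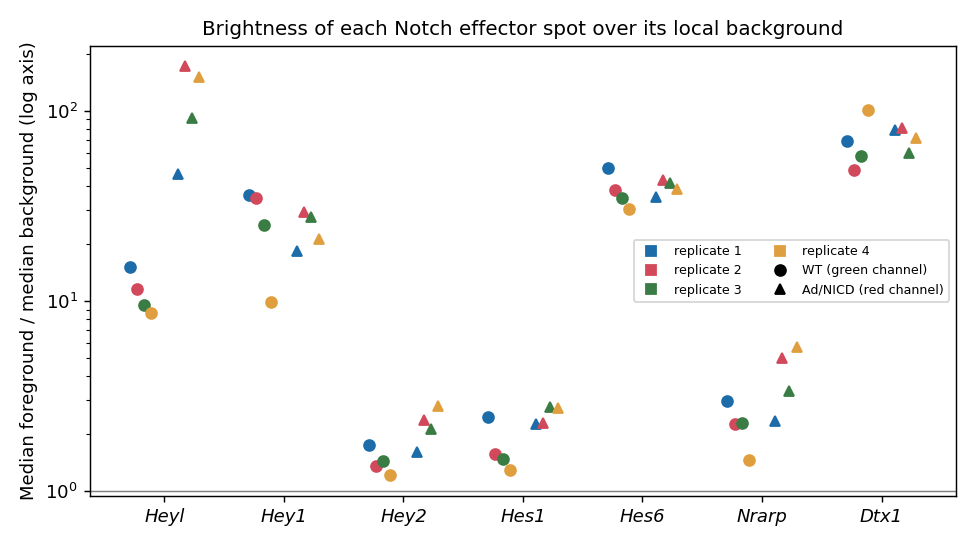
Median foreground over median background of the spot of each Notch effector on the 4 arrays (log axis), with circles for the WT channel and triangles for the Ad/NICD channel, coloured by replicate. Hey2, Hes1 and Nrarp lie between 1.21 and 5.70, and the 4 other genes between 8.63 and 171.

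Heyl was the 1 Notch effector that passed the test. Its normalised log2 signal was 8.73, 8.79, 8.62 and 8.61 in the WT samples of replicates 1 to 4, and 11.03, 11.99, 11.38 and 11.84 in the Ad/NICD samples. The lowest Ad/NICD sample lay 2.25 log2 units above the highest WT sample, and WT samples lay close together, at 8.69 ± 0.085 (SD, n = 4), while Ad/NICD samples spread more widely, at 11.56 ± 0.44 (SD, n = 4). The log2 ratio within arrays was 2.30, 3.21, 2.76 and 3.22 for replicates 1 to 4, higher on 4 of 4 arrays. The 4 ratios had an SD of 0.44. Their mean was 2.87 ± 0.17 (moderated SE of limma, as for every ratio below, n = 4 arrays). That is a fold of 7.33 with a 95% interval from 5.40 to 9.95 (limma, adjusted p = 0.0399).

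Over all gene names, 0.0478% passed that threshold in either direction, which is 12 of 25097, and 0.0279% passed with Ad/NICD higher. Groups that do not overlap were found for 9.8% of gene names in either direction and for 4.25% with Ad/NICD higher. Heyl held the 4th smallest p-value and the 9th largest mean ratio by size. The size of its ratio was stable and its call was not. Without replicate 1, 2 or 3 its ratio was 3.07, 2.76 and 2.91 and it did not pass (limma, adjusted p = 0.106, 0.184 and 0.40), and without replicate 4 it was 2.76 (limma, adjusted p = 0.0480). With the channels fitted separately and the array as a random block, the adjusted p of Heyl in limma was 0.00187, and without the replicate block it was 0.00224.

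**Figure D2:**
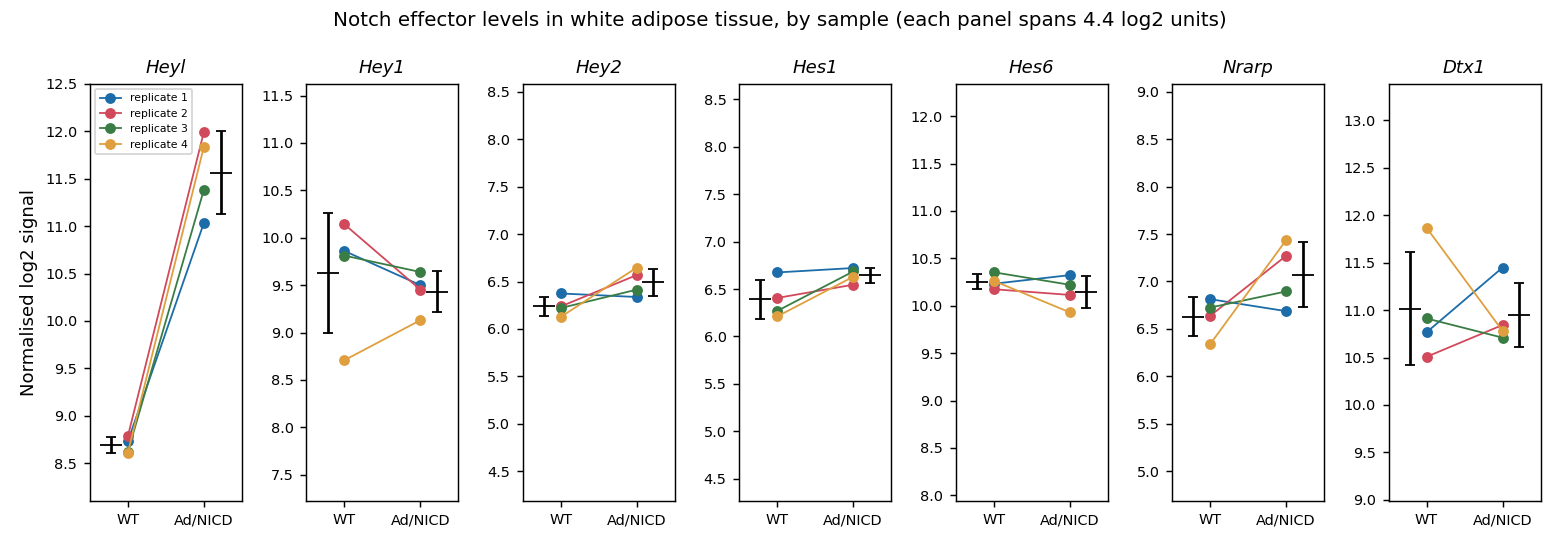
Normalised log2 signal of each Notch effector in WT and Ad/NICD samples, with lines joining the 2 samples of an array and black marks for the mean and SD of 4 samples. Heyl separates the genotypes by 2.25 log2 units, and the samples of the 6 other genes overlap.

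The other Hey genes did not pass. Hey1, a bHLH repressor that endothelial cells are known to express, had log2 signals of 9.86, 10.14, 9.81 and 8.71 in WT and of 9.50, 9.45, 9.64 and 9.13 in Ad/NICD. The WT sample of replicate 4 was the lowest of the 8, and on the arrays of the 3 other pairs Ad/NICD was the lower sample. Its mean log2 ratio was -0.20 ± 0.18 (SE, n = 4 arrays), with a 95% interval of the fold from 0.63 to 1.20 (limma, adjusted p = 0.658). The spot was bright, and an increase above 1.20-fold lies outside that interval, which covers dye and genotype effects together. The ratios had an SD of 0.47, with 0.42 on the array of replicate 4. With the direction turned, the interval runs from 0.83 to 1.59. The mean was -0.037 without replicate 2 and -0.41 without replicate 4.

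Hey2 is the close relative of Hey1 with the RBPJ match shown above. Its log2 signal was 6.37, 6.24, 6.22 and 6.13 in WT and 6.34, 6.57, 6.41 and 6.65 in Ad/NICD. The groups overlapped in 1 place only, where the Ad/NICD sample of replicate 1 lay 0.037 below the WT sample of the same array. The mean log2 ratio was 0.25 ± 0.10 (SE, n = 4 arrays; limma, adjusted p = 0.346), higher on 3 of 4 arrays and 0.16 without replicate 4. In the authors' deposited value table the Hey2 values were -3.96, -4.63, -4.40 and -5.38 in WT and -3.83, -3.24, -3.44 and -2.94 in Ad/NICD. There the groups did not overlap, as was so for 8.33% of gene names in that table in either direction and for 3.64% with Ad/NICD higher. The mean difference was 1.23 (limma, adjusted p = 0.307).

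Hes1, the Hes gene most often read as a sign of Notch activity, had log2 signals of 6.68, 6.41, 6.27 and 6.21 in WT and of 6.72, 6.55, 6.69 and 6.63 in Ad/NICD. Its Ad/NICD samples lay close together, and the WT sample of replicate 1 lay among them. The ratio was above 0 on 4 of 4 arrays, which held for 11.2% of all gene names. The mean was 0.26 ± 0.091 (SE, n = 4 arrays) with an unadjusted p of 0.0353 in limma, a level reached by 15.2% of gene names, and an adjusted p of 0.287. Its fold had a 95% interval from 1.02 to 1.40.

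Hes6 was bright and nearly level across samples. Its log2 signal was 10.23, 10.17, 10.35 and 10.26 in WT and 10.32, 10.11, 10.22 and 9.93 in Ad/NICD. The groups overlapped, and the Ad/NICD sample of replicate 4 was the lowest. The mean log2 ratio was -0.11 ± 0.086 (SE, n = 4 arrays; limma, adjusted p = 0.608), with a 95% interval of the fold from 0.80 to 1.08. It was -0.034 without replicate 4 and -0.17 without replicate 1.

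Nrarp, the feedback regulator, had log2 signals of 6.81, 6.64, 6.72 and 6.34 in WT and of 6.69, 7.27, 6.90 and 7.44 in Ad/NICD. Ad/NICD samples of replicates 2, 3 and 4 lay above every WT sample, and that of replicate 1 lay below its WT partner. The ratios were -0.13, 0.63, 0.17 and 1.10, with a mean of 0.44 ± 0.21 (SE, n = 4 arrays; limma, adjusted p = 0.398) and a 95% interval of the fold from 0.94 to 1.97. Without replicate 4 the mean was 0.23.

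Dtx1 differed more among samples than between genotypes. Its log2 signal was 10.77, 10.51, 10.91 and 11.87 in WT and 11.45, 10.84, 10.71 and 10.78 in Ad/NICD. The WT sample of replicate 4 was the highest of the 8 and the Ad/NICD sample of replicate 1 the next. The ratios of 0.68, 0.34, -0.20 and -1.09 gave a mean of -0.07 ± 0.30 (SE, n = 4 arrays; limma, adjusted p = 0.939), with a 95% interval of the fold from 0.57 to 1.60. The mean turned to 0.27 without replicate 4, and it was -0.32 without replicate 1, -0.20 without replicate 2 and -0.023 without replicate 3.

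**Figure D3:**
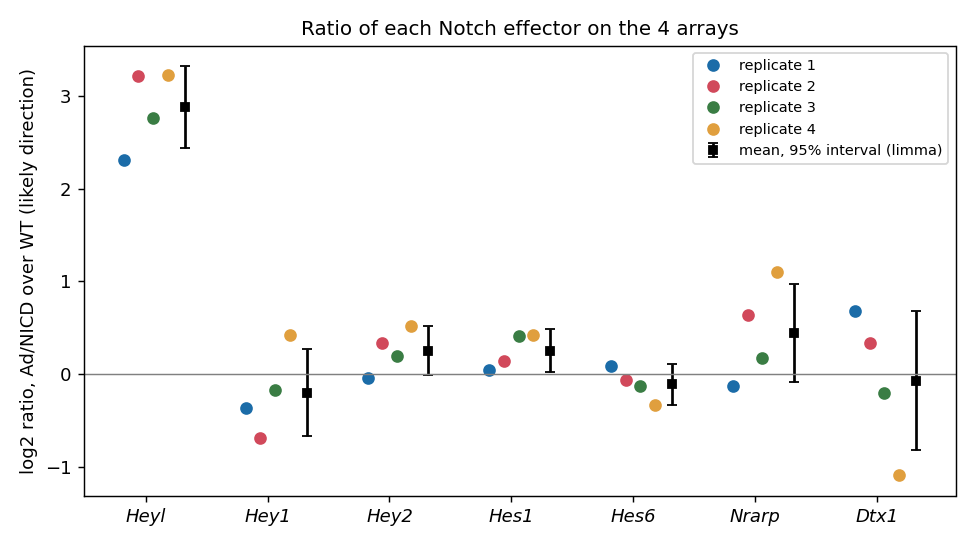
Log2 ratio of Ad/NICD over WT on each of the 4 arrays for the 7 Notch effectors, with black squares for the mean and bars for the 95% interval in limma. The 4 Heyl ratios lie between 2.30 and 3.22, and the ratios of the 6 other genes between -1.09 and 1.10.

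In all, 1 of the 7 genes passed over all gene names. Of the 7 means, 4 lay above 0, beside 12143 of 25097 over all gene names. These were the means of Heyl and of the dim genes Hey2, Hes1 and Nrarp. The median of the 7 means was 0.25, beside -0.006 over all gene names, and it is the value of the dim gene Hey2. An exact sign-flip permutation test over the 4 arrays cannot reach the threshold of 0.05, since its smallest 2-sided p is 2 of 16 sign patterns, and Heyl and Hes1 both reached that smallest value. When every probe was fitted with no filter, 0 of 55681 probes passed in limma, 7473 had an unadjusted p under 0.05, and Heyl had an adjusted p of 0.0998.

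The dim genes moved with the background step. The reported values use an offset of 50 intensity units in both channels, which pulls the ratio of a dim spot toward 0. With an offset of 10, the mean log2 ratio went from 0.25 to 0.49 for Hey2, from 0.26 to 0.48 for Hes1 and from 0.44 to 0.68 for Nrarp. With the scanner's processed signals, which carry no offset, it was 1.24 for Hey2, 0.66 for Hes1 and 1.04 for Nrarp. Heyl moved from 2.87 to 3.02 and 3.06 under the same changes. The bright genes Hey1 and Hes6 moved little, to -0.21 and -0.082 with the processed signals.

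None of the 3 dim genes passed under any of these settings (limma, adjusted p from 0.258 to 0.429 with the offset of 10 and the processed signals). On the 4 arrays the processed log2 ratio was 0.15, 1.38, 0.97 and 2.46 for Hey2. For Hes1 it was -0.14, 0.25, 1.21 and 1.33, and for Nrarp -0.039, 1.21, 0.33 and 2.64. All 3 genes had their lowest ratio on the array of replicate 1 and their highest on that of replicate 4, where their WT spots were dimmest over background. Their background-subtracted WT intensities there were 8.87, 17.8 and 19.8 units. These 3 genes can be ranked neither as changed nor as unchanged with these arrays.

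**Figure D4:**
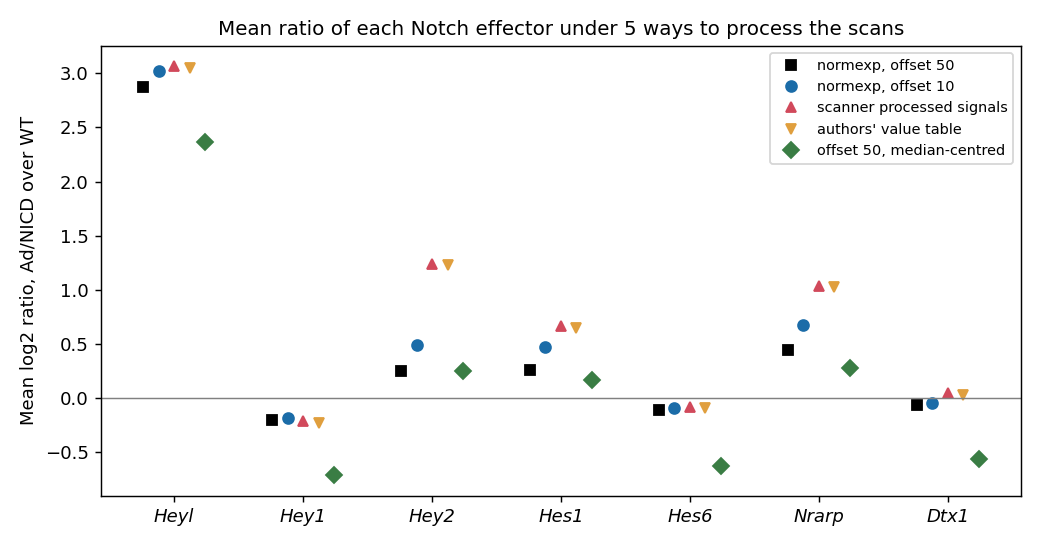
Mean log2 ratio of each Notch effector over 4 arrays under 5 ways to process the scans. Heyl stays between 2.36 and 3.06, Hey2 runs from 0.25 to 1.24, and median-centring moves the bright genes Hey1, Hes6 and Dtx1 down.

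Scaling mattered for the bright genes. Median-centring each array in place of loess took the median of all gene names from -0.006 to -0.32. Under it Hey1 had -0.71, Hes6 -0.62 and Dtx1 -0.57 (limma, adjusted p = 0.131, 0.0776 and 0.111). Heyl had 2.36, with the same adjusted p as Hes6 (limma, adjusted p = 0.0776). Part of each move is the shift of all gene names. Dtx1 lay at -0.07 with loess and at 0.045 with the processed signals, which differ from the reported values in background correction, offset and scaling together. Its sign thus depends on the processing, and median-centring alone did not turn it.

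Samples differed in ways other than genotype. Median foreground over all probes was between 72 and 88.5 units in green and between 34 and 43.5 in red, and 58.1% to 68.6% of spots were well above background. Both samples of replicate 4 had the male pattern of sex-linked genes. Ddx3y was at 9.95 and 9.55 there, against at most 5.86 in the 6 other samples. Xist was low there, at 6.12 and 5.87 on its brightest probe against at least 10.15 in the 6 others. On its dimmer probe it was at 5.69 and 5.82, against at least 7.17. The ratios of Heyl on the 3 other arrays, 2.30, 3.21 and 2.76, had a mean of 2.76, beside 3.22 on the array of replicate 4. All 15 adipocyte markers listed passed the filter on dim probes, and all 14 endothelial and all 13 smooth muscle and pericyte markers did too.

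In whole tissue, fewer cells of a type and less RNA per cell cannot be told apart, and Notch effectors are known from several cell types. Smooth muscle and pericyte markers had 4 of 13 members above 0, 0 past the threshold and a median log2 ratio of -0.24, with summed log2 levels of 14.84 to 15.91 in WT and 15.30 to 15.66 in Ad/NICD. The median was -0.13 without replicate 1. Pdgfrb, a receptor of mural cells and fibroblasts, had 0.53 ± 0.12, and Acta2, smooth muscle actin, had -0.41 ± 0.30, with -0.21 without replicate 1 and -0.78 without replicate 4. Endothelial markers had 0 of 14 above 0, 0 past the threshold and a median of -0.26, with summed levels of 15.42 to 15.57 in WT and 14.99 to 15.35 in Ad/NICD. The count uses the brightest probe of each gene. The other Kdr probe gave 0.097 against -0.37 on the brightest, and the other probes of Erg and Ptprb gave -0.093 and -0.37. That of Erg was dim, with a mean log2 signal of 6.20. The part of these cell types in the values of Heyl, Hey1 and Hey2 was not tested.

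Adipocyte markers had 3 of 15 above 0, with 1, the activin receptor gene Acvr1c at -1.71, lower past the threshold, and a median of -0.84. Their summed levels were 18.16 to 18.67 in WT and 17.21 to 18.12 in Ad/NICD. Adipose progenitor markers had 7 of 7 above 0 and a median of 0.35, which was 0.015 without replicate 4 and 0.62 without replicate 1. None of the 7 passed. Nerve and Schwann cell markers had 5 of 6 above 0 and a median of 0.29, B cell markers 1 of 5 and -0.45, and mammary epithelium markers 0 of 7 and -0.51, none past the threshold. The mammary median was -0.28 without replicate 2 and -0.89 without replicate 3, and the nerve median was 0.47 without replicate 2. On the arrays of replicates 1 to 4 the mammary median was -1.11, -1.54, 0.24 and 0.01. Summed mammary levels were 9.17 in WT and 9.22 in Ad/NICD of replicate 4, against 13.39 to 14.82 in the other samples.

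Skeletal muscle markers had 0 of 10 above 0, none past the threshold, and a median of -1.70, with summed levels of 11.25 to 16.90 in WT and 10.21 to 12.84 in Ad/NICD. The WT sample of replicate 4 held the highest level, 16.90, and it was also the sample with the highest Dtx1 and the lowest Hey1. The median of the muscle list was -3.95 on that array and -0.91 without it. The part of muscle RNA in the values of Dtx1 and Hey1 was not tested.

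The other genes of the pathway were grouped in 7 lists, from receptors and ligands to targets and genes repressed by HES1. Of their 69 genes, 63 were tested, 0 passed in limma and 12 had an unadjusted p under 0.05, a level that 15.2% of all gene names reached, with 33 means above 0, 30 below and a median of 0.003. Among the 4 receptors, Notch3, a receptor of mural cells that Notch signalling can induce, had 0.73 ± 0.16 and was higher on 4 of 4 arrays (limma, adjusted p = 0.161). Its log2 ratios were 0.23, 0.73, 0.76 and 1.20. Notch1 had 0.36 ± 0.24 and was higher on 2 of 4 arrays, and Notch2 had -0.18 ± 0.15. Notch1 had 0.064 without replicate 1, and Notch2 had -0.011 without it. The other kept probes of Notch1 and Notch2 gave 0.035 and 0.060. Both were dim, with mean log2 signals of 6.17 and 6.14, a range in which the offset pulls ratios toward 0. The position of the Notch1 probe relative to the overexpressed domain is unknown here, so its value does not check the labels.

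Of the 6 ligands, 3 lay above 0. Dlk1, the preadipocyte factor Pref-1 and a non-canonical ligand that HES1 has been described to repress, had 0.73 ± 0.18 and ratios from 0.070 to 1.07, with 0.46 on its other kept probe. Jag1 had 0.49 ± 0.195, and Dll1 had -0.32 ± 0.15. Without replicate 4 Jag1 had 0.26, and without replicate 2 Dll1 had -0.17. The nuclear complex and its corepressors lay near 0, with 6 of 14 above 0 and a median of -0.03, and RBPJ itself (Rbpj) had 0.02 ± 0.18. Tle2, a Groucho corepressor, had -0.36 ± 0.11, the co-activator Maml3 had -0.13 ± 0.076 and the corepressor Ctbp1 had 0.12 ± 0.078. Maml3 had -0.065 without replicate 2, Ctbp1 had 0.057 without replicate 1, and Rbpj ran from -0.16 without replicate 4 to 0.20 without replicate 1.

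Receptor processing and trafficking genes had 9 of 20 above 0 and a median of -0.03. Mfng, a fringe enzyme that adds sugars to Notch receptors, had -0.79 ± 0.14 and was lower on 4 of 4 arrays (limma, adjusted p = 0.131), and its other kept probe gave -0.88. With the array as a random block Mfng passed (limma, adjusted p = 0.0220), as it did without the replicate block (limma, adjusted p = 0.0346). In those fits 1.99% and 1.03% of gene names passed. Numbl, which antagonises Notch, had 0.55 ± 0.12, and Dtx3, a relative of Dtx1, had 0.32 ± 0.069.

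Among other bHLH genes of the Hes and Hey kind, 0 passed. Of 7 listed, 5 were tested, and their means ran from 0.02 to 0.16, with Bhlhe40 at 0.16 ± 0.11, Hes2 at 0.08 ± 0.066 and Hes7 at 0.04 ± 0.062. Bhlhe40 had 0.062 without replicate 3, and Hes2 had 0.04 without replicate 4. Hes2 and Bhlhe41 were dim, with mean log2 signals of 6.11 and 6.48 in WT, a range in which the offset pulls ratios toward 0. Hes3 and Helt did not pass the filter on dim probes. Of 11 other genes described as Notch targets, 10 were tested and 6 lay above 0, with a median of 0.06. After Notch3, the smallest p-values belonged to Igf1r, a growth factor receptor, at -0.32 ± 0.090 and Efnb2, an ephrin of arteries, at -0.19 ± 0.093. The other Efnb2 probe gave 0.15 and was dim, with a mean log2 signal of 6.14.

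Genes described as repressed by HES1 split, with 4 of 7 tested above 0 and a median of 0.02. Cdkn1c, an inhibitor of the cell cycle, had -0.90 ± 0.18 and did not pass in the ratio fit (limma, adjusted p = 0.150), whereas it did when the array was a random block (limma, adjusted p = 0.0449). Dlk1, of the same list, is given above. Prdm16 and Ppargc1a, regulators of brown fat genes, had 0.02 ± 0.11 and 0.25 ± 0.21, and -0.077 and 0.044 without replicate 4.

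**Figure D5:**
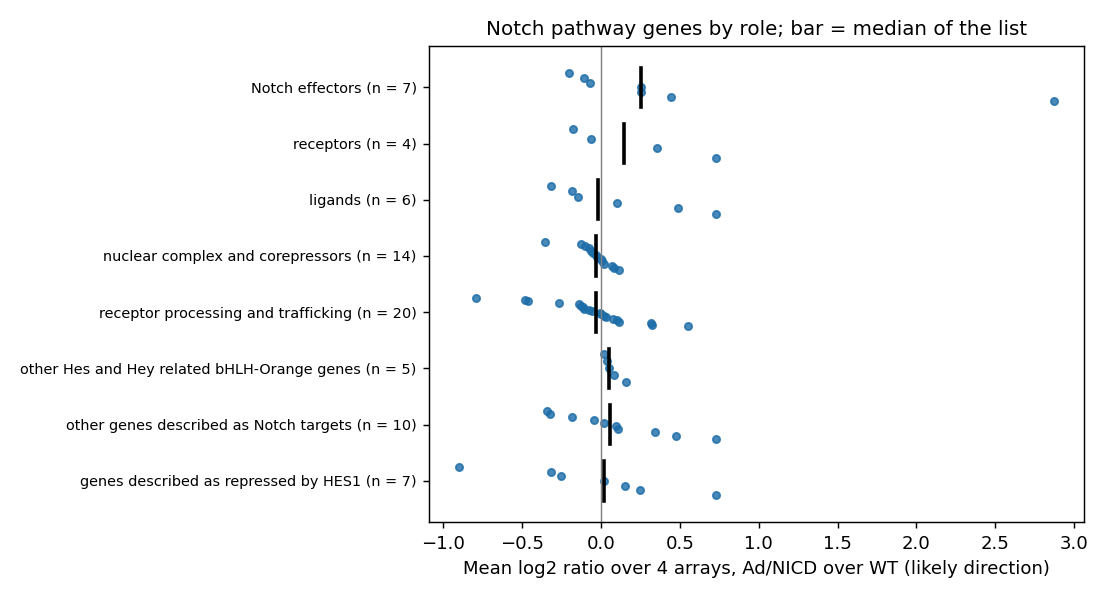
Mean log2 ratio over 4 arrays for the tested members of the Notch effector list and of 7 pathway lists, with a black bar at the median of each list. Heyl at 2.87 stands to the right, and the pathway genes lie between -0.90 and 0.73.

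Across the 8 samples, the levels of some members followed each other. Hey2 and Nrarp had the highest Pearson correlation among the 7 genes, 0.97, and Heyl had 0.85 with Hey2, 0.77 with Nrarp and 0.65 with Hes1. Hey1 and Dtx1 ran against each other, at -0.75, with the WT sample of replicate 4 at the end of both. The samples share arrays and fall into 2 genotypes, and Hey2, Hes1 and Nrarp are the dim genes that moved with the background step. These correlations are thus descriptions without a test.

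The genes most like each member were sought among 1110 gene names with an SD of 0.5 or more over the 8 samples. For Heyl they were Anxa2 and Gdf5, each at 0.98, and Myom3, also at 0.98. Anxa2 and Gdf5 had mean log2 ratios of 0.94 and 2.48, and both passed (limma, adjusted p = 0.0399 and 0.0313). Myom3 had 1.91 and did not pass (limma, adjusted p = 0.108). The sample order of Myom3 was closest to that of Heyl (Spearman 0.98, against 0.76 for both others). For Hey1 they were Hspa1a, Ccbe1 and Fgfr2 at 0.99, 0.99 and 0.98. For Hey2 and Nrarp the first 2 genes were shared, Ms4a6d and Fbn1, at 0.95 and 0.93 with Hey2 and at 0.95 and 0.96 with Nrarp, followed by Rarres2 for Hey2 at 0.93 and Fcer1g for Nrarp at 0.94.

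Hes1 was most like the matrix genes Sparc and Col1a2 and the fibroblast gene Fap, at 0.82, 0.77 and 0.77. Hes6 was most like Tti2, Hal and Camk4, at 0.95, 0.85 and 0.81. Dtx1 was most like Cox6a2 and Ampd1, both known from skeletal muscle, and Ceacam16, at 0.86, 0.83 and 0.82. By sample order these genes followed Dtx1 less closely, Cox6a2 least (Spearman 0.38, 0.64 and 0.69). The Pearson correlations of all members are over 8 samples and were picked as the highest of 1110, and no test was made.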

How the data were processed

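Gene expression in white adipose tissue of 4 WT and 4 Ad/NICD mice was read on 4 arrays with 2 colours. The submitters' processing notes name Agilent Feature Extraction 11.5. Per the file headers, the deposited tables give intensity per spot as foreground and background medians and as background-subtracted and processed signals, and, except for replicate 1, other columns with flags for spots well above background. Both samples of a replicate number carry the same table, which leaves 4 distinct tables. A deposited table of the authors holds log2 values, each column being the log2 processed signal of 1 channel minus a constant that places its 75th percentile at 0. Column medians lay between -3.84 and -3.52, and its step of centring is found from the values only.

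Background was corrected with normexp (offset 50) on median foreground and background, loess within each array gave control spots no weight, and spots of a probe were averaged (limma 3.58.1, R 4.3.3). Missing flags of replicate 1 were rebuilt from the spread of negative controls, with a limit set on the 3 other arrays, where the rule gave the scanner's flag for 97.9% to 99.98% of spots. A probe was kept if either channel was well above background on 3 or more of the 4 arrays, and the brightest stood for a gene. Of 55681 probes, 28026 matched a RefSeq symbol (GRCm38.p6, used for names) and 27655 kept their own name. Ratios were tested against 0 with lmFit and eBayes, Benjamini-Hochberg over all gene names, threshold 0.05. The fit was tested on simulated data. Sample levels are channel signals after Aquantile scaling.

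Same-numbered samples share an array. Their deviations from group means correlated at 0.17, 0.17, 0.56 and 0.53 for replicates 1 to 4, all above 0.1. The array was kept as the pair. The highest correlation of either sample with a sample of the other genotype on another array was 0.29, 0.14, 0.29 and -0.018. Replicate 1 thus had a closer match on another array, so these values do not settle the choice. The p-values of the ratio fit rest on the moderated spread of the ratios between these 4 arrays. Those of the separate-channel fits rest on the spread between samples. Depth is not defined for arrays, and their number limits the precision.

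Named genes were the 7 members, pathway genes past the threshold or the 3 with the smallest p per list, and the 3 genes most correlated with each member; others named in the text (Rbpj, Prdm16, Ppargc1a, Pdgfrb, Acta2, Acvr1c and sex-linked genes) were chosen after their values were seen. One gene that the rule names is not reported here. Members and lists were chosen with earlier results of these data known. The alternatives tried were 14 settings, 4 of them leaving out a replicate.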

Additional observations from a re-analysis of the deposited data

How the results depend on the processing

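Heyl kept its direction under all 14 alternatives, between 2.36 and 3.07, and its call did not hold under all. Its log2 ratio was 3.06 with the scanner's processed signals, 3.05 in the authors' value table, 2.36 with median-centred arrays, and 2.87 with no filter on dim probes and with eBayes trend and robust settings. In these 5 settings 0 Notch effectors passed in limma (adjusted p of Heyl from 0.0583 to 0.432). The cause was not tested, except that the unfiltered fit adjusts over 36799 names in place of 25097. Leaving out each replicate gave Heyl ratios from 2.76 to 3.07 and 0 to 1 effectors past the threshold. The median of the 7 genes, 0.25, was 0.48 with an offset of 10, 0.66 with processed signals and 0.65 in the value table. It was 0.17 with median-centring, and 0.094, without Hey2, where both channels had to be well above background on all arrays. Dtx1, -0.07, turned to 0.045 with processed signals, 0.031 in the value table and 0.27 without replicate 4, with -0.32 without replicate 1 at the other end. Over all probes, 1 effector, Heyl, passed with an offset of 10, against 0 at 50. With the offset of 10 at least 29 of 55681 probes passed, against 0 of 55681 at 50. Hey2 has no value where both channels had to be well above background on all arrays. The 12 gene names past the threshold became 4 with processed signals, 3 in the value table, and 0 with median-centring, no filter, or trend and robust settings (unadjusted p under 0.05 for 9614, 5092 and 2896). Leaving out each replicate gave 0 to 43, with 0 without replicates 1, 2 and 3 (unadjusted p under 0.05 for 3565, 2535 and 1990). Without the replicate block 258 passed, and 500 with the array as a random block. Of these calls 7 were higher and 5 lower as reported, 8 and 10 with an offset of 10, 3 and 1 with processed signals, 2 and 1 in the value table, 104 and 154 without the block, 215 and 285 with the random block, and 9 and 34 without replicate 4. Of the pathway lists, 1 gene (Mfng) and 2 genes (Mfng, Cdkn1c) passed there, and the block changed no call of a Notch effector. The nerve list median ran from 0.24 to 0.47 when each replicate was left out.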
